A study of Mus musculus with 9 samples.

Results

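The 4 libraries compared here are HiChIP libraries from sorted CD4+ CD8+ thymocytes of NOD mice. They were chosen by the antibody field of the labels: 2 were made with an antibody to H3K27ac and 2 with an antibody to Smc1, out of 9 libraries in the series. HiChIP joins pieces of DNA that lie close together in the nucleus, enriches the joined pieces that carry the target of an antibody, and counts the read pairs that span each contact. The counted unit is the paired-end tag (PET), and an interaction is a pair of anchors, each about 1 kb wide, joined by PETs. NOD is an inbred mouse strain that develops autoimmune diabetes spontaneously. No treatment, age, sex or number of mice is given in the labels. The cells were sorted as 7AAD-negative cells stained for CD4 (PE) and CD8a (APC), cut with MboI and tagged with Tn5.

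The 2 Smc1 NOD libraries are technical replicates of 1 biological replicate, whereas the 2 H3K27ac NOD libraries are labelled as separate biological replicates. The spread between the Smc1 libraries therefore holds no variation between biological replicates. The H3K27ac samples carry titles that mention Smc1, and the extraction protocol names only the Smc1 antibody. The antibody field was followed here, and no measurement in the tables checks the antibody.

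Smc1 is a core subunit of cohesin, the ring-shaped complex that extrudes chromatin loops until it meets CTCF bound at convergent sites. H3K27ac is an acetyl mark on histone H3 at active promoters and enhancers, so an H3K27ac HiChIP library enriches contacts with an active end, whereas a cohesin library enriches contacts wherever the ring is loaded. CD4+ CD8+ double-positive thymocytes are the stage at which the T cell receptor alpha chain is rearranged and cells are selected. Their regulators include Bcl11b, a zinc finger factor of T cell commitment.

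Only interactions on chromosomes 1 to 19 entered, and only those whose anchor midpoints lay 10 kb or more from each other. H3K27ac NOD 1 and 2 held 381002 and 497697 such PETs, and Smc1 NOD 1 and 2 held 1663280 and 1484541. An interaction was listed by the authors only from 2 PETs upwards, and between 65.1% and 73.5% of the used interactions had exactly 2. A gene without a listed contact is therefore below the listing limit, not at 0, and this limit weighs more on the shallower H3K27ac lists. Levels are given as counts per 1e6 used PETs of the library (CPM), over the window within 5 kb of either end of a gene. Because all cells of a library were pooled, more contacts per cell and more cells with the contact cannot be told apart.

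The markers of double-positive thymocytes examined (Rag1, Rag2, Cd4, Cd8a, Cd8b1, Ptcra, Dntt, Cd1d1, Themis and Ccr9) had a listed contact in 9, 10, 10 and 8 of 10 cases in H3K27ac NOD 1, H3K27ac NOD 2, Smc1 NOD 1 and Smc1 NOD 2. Their summed levels were 512, 691, 405 and 84.9 CPM. Markers of other cell types also held contacts, so these data do not check the purity of the sort.

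Among the NOD libraries, H3K27ac NOD 1 stood apart in the chromosomes its contacts came from. Chromosome 19 held 0.57% of its PETs, against 2.60% in H3K27ac NOD 2, 2.71% in Smc1 NOD 1 and 1.66% in Smc1 NOD 2. Chromosome 16 held 0.97%, 3.43%, 3.59% and 2.55% in the same order. Chromosome 7 held 11.5% of its PETs, against 5.86%, 6.05% and 7.11%. Only on chromosome 11 were both H3K27ac libraries above both Smc1 libraries (10.7% and 7.70% against 7.35% and 7.36%), and only on chromosomes 3 and 14 was it the other way round. H3K27ac BL6 1 had a like profile, with 0.85% on chromosome 19, 1.13% on chromosome 16 and 9.80% on chromosome 7, so values of the BL6 libraries set beside those of NOD share this trait. The part of this difference in the results for single genes was not tested, except by the scaling per chromosome given below.

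**Figure D1:**
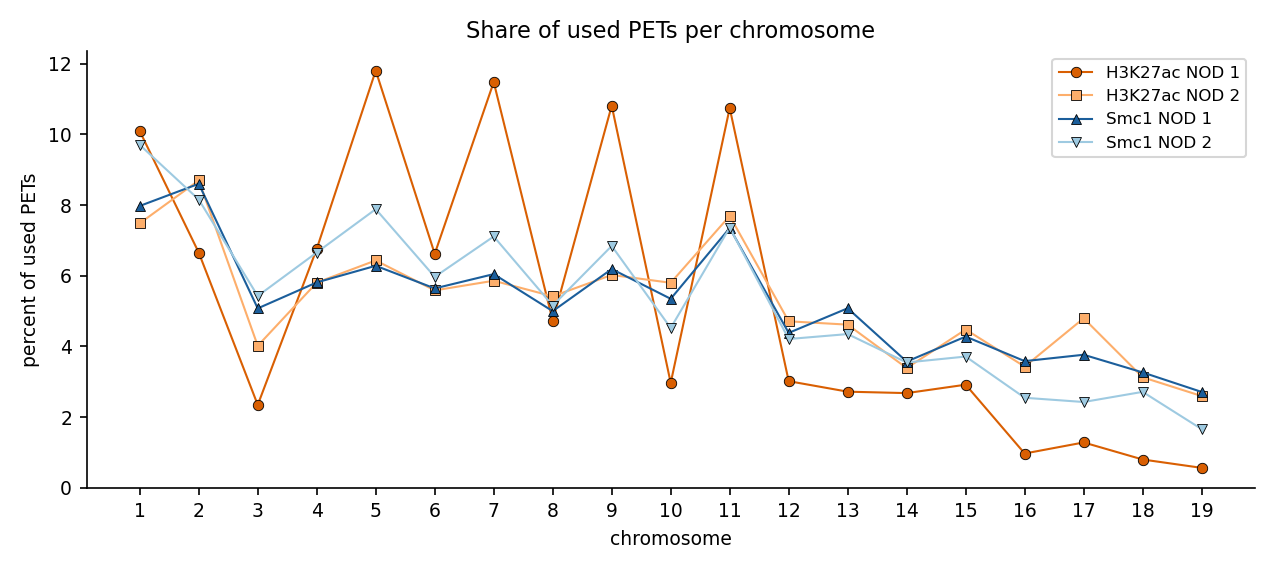
Share of used PETs (percent, vertical axis) on each chromosome (horizontal axis) in the 4 NOD libraries, 1 line per library. H3K27ac NOD 1 lies below the other libraries on chromosomes 16 to 19 and above them on chromosomes 5, 7, 9 and 11.

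Across 20661 protein-coding genes, the H3K27ac libraries were less alike in their levels than H3K27ac NOD 2 and Smc1 NOD 1 were. On the log2(CPM + 1) scale, Pearson's r was 0.616 between H3K27ac NOD 1 and 2 and 0.731 between Smc1 NOD 1 and 2. It was 0.726 between H3K27ac NOD 2 and Smc1 NOD 1, 0.545 between H3K27ac NOD 2 and Smc1 NOD 2, and 0.591 and 0.557 between H3K27ac NOD 1 and Smc1 NOD 1 and 2. These values describe genes, which are not replicates, and neighbouring genes share interactions.

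The anchors of the H3K27ac lists lay largely within those of the Smc1 lists. Of the 142330 anchors of H3K27ac NOD 1, 75.6% overlapped an anchor of Smc1 NOD 1, and of the 188342 anchors of H3K27ac NOD 2, 70.7% did. In the other direction, 27.5% and 34.4% of the 394444 Smc1 NOD 1 anchors overlapped an anchor of H3K27ac NOD 1 and 2. The H3K27ac lists shared 55.4% of the anchors of library 1 and 41.3% of those of library 2 with each other, less than either shared with the longer Smc1 lists.

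The question of the comparison is which contacts are enriched with an active histone mark and which with cohesin in the same cell type. H3K27ac contacts joined gene ends more often. The share of PETs with both anchors at a gene window was 7.04% and 7.84% in the H3K27ac libraries and 5.87% and 4.53% in the Smc1 libraries. The groups did not overlap, and the mean difference was 2.24 percentage points (two-sided exact permutation test, p = 0.333, the smallest p that 2 against 2 libraries allow). The share with no anchor at a gene window was 63.7% and 60.7% for H3K27ac and 67.2% and 71.5% for Smc1. The order was the same in each span class: among contacts of 1 Mb and over, 5.65% and 6.92% joined gene ends at both anchors for H3K27ac, against 4.30% and 3.08% for Smc1. Among contacts of 10 to 25 kb, the values were 8.43% and 11.9% against 7.56% and 6.16%. In BL6 thymocytes, whose libraries are separate, both anchors were at gene windows for 7.36% and 7.16% of H3K27ac PETs and for 5.72% and 4.94% of Smc1 PETs.

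Contact span did not separate the antibodies. The median span of PETs was 465 kb and 613 kb in the H3K27ac libraries and 455 kb and 588 kb in the Smc1 libraries. The mean difference of 17.3 kb was smaller than the spread within either group (two-sided exact permutation test, p = 0.667). Library 1 of each antibody was the shorter, with 23.2% and 22.1% of PETs spanning 1 Mb and over, against 30.4% and 29.1% in library 2. Without H3K27ac NOD 2 the difference was -56.6 kb, and without Smc1 NOD 1 it was -49.4 kb, so its direction rested on single libraries.

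**Figure D2:**
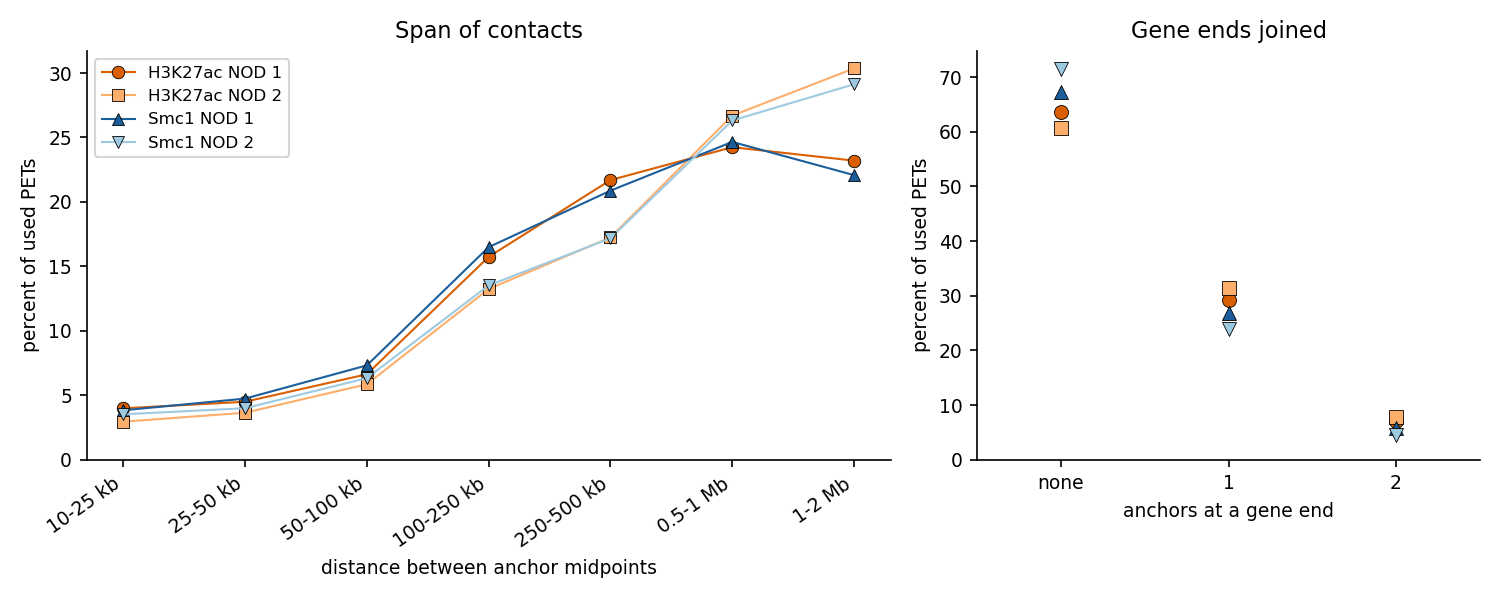
Left, share of used PETs (percent) in each class of distance between anchor midpoints; right, share of used PETs with none, 1 or 2 anchors at a gene end. Points are the 4 libraries. The span profiles interleave, with library 1 of each antibody lying together, whereas for 2 gene ends both H3K27ac libraries (7.04% and 7.84%) lie above both Smc1 libraries (5.87% and 4.53%).

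Cohesin contacts were spread more over the genome away from genes. Of 93313 bins of 25 kb, those touching no protein-coding gene held 30.1% and 27.2% of the PET ends of the H3K27ac libraries and 36.2% and 40.2% of those of the Smc1 libraries. Both Smc1 libraries were above both H3K27ac libraries in CPM in 53.9% of the bins without a gene and in 31.3% of the bins with one; over all bins this share was 42%. Both H3K27ac libraries were above both Smc1 libraries in 5.34% and 17.1%, against 11.5% over all bins. The count depended on the PET limit of the Smc1 lists. When only Smc1 interactions of at least 4 PETs were kept, which left 363135 and 352905 PETs in 74155 and 68747 Smc1 interactions, against 158592 and 191913 H3K27ac interactions with the limit at 2 PETs, Smc1 was higher in 10724 bins in place of 39185, and H3K27ac in 12572 in place of 10745.

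No gene and no bin passed the test, which had little power with 2 libraries per group. In counts simulated from the means, depths and dispersions of these libraries, it called 0 of 50 genes changed 4-fold and 17 of 50 changed 16-fold. It called 0 of 50 bins changed 32-fold. The lack of calls therefore does not show that the levels were alike. In edgeR's quasi-likelihood test with Benjamini-Hochberg adjustment, 0 of 15598 genes tested (0%) had an adjusted p under 0.05. The smallest adjusted p was 0.901, and 846 genes had an unadjusted p under 0.05. DESeq2 called 14 genes on the same counts, 11 higher with H3K27ac and 3 higher with Smc1. Of 60237 bins tested, edgeR called 0 (0%), with a smallest adjusted p of 0.145 and 7522 bins at an unadjusted p under 0.05, and DESeq2 called 3. Without Smc1 NOD 1, edgeR called 10 genes and 13 bins, all higher with H3K27ac. Without H3K27ac NOD 2, it called 7802 bins, 1616 higher with H3K27ac and 6186 higher with Smc1; in that fit the lone H3K27ac library is assumed to vary as the technical replicates of Smc1 do. The values below therefore describe these 4 libraries, and a gene is called higher in a group only in the sense that both of its libraries lay above both of the other group.

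By that measure H3K27ac was higher at 4313 of 20661 genes (20.9%) and Smc1 at 4059 (19.6%). This near balance holds for CPM only. Scaling by TMM, which lowers a log2 ratio of H3K27ac over Smc1 by 0.45 at every gene, gave 2444 genes higher with H3K27ac and 5794 higher with Smc1, so that H3K27ac made up 29.7% of the separated genes in place of 51.5%. Scaling by DESeq2's size factors gave 2605 and 5550, and scaling within each chromosome gave 3009 and 5595. Of the 4313 genes higher with H3K27ac, 45.5% were also higher with H3K27ac in both BL6 libraries and 4.34% were higher with Smc1 there. Of the 4059 genes higher with Smc1, 45.2% were also higher with Smc1 in BL6 and 6.75% with H3K27ac. Over all genes, 22.4% were higher with H3K27ac and 18.1% with Smc1 in BL6.

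The promoters of the separated genes differed in base composition. In the 250 bases before the first RefSeq start site (GRCm38.p6, 16456 genes matched), the median number of CG dinucleotides was 14 for genes higher with H3K27ac, 5 for genes higher with Smc1 and 10 for all genes. At least 10 CG were present in 66.7%, 36.7% and 51.8%. The ETS core CCGGAAG, searched on both strands, was present in 13.0%, 5.15% and 9.37%. The E-box CAGCTG was present in 12.1%, 11.5% and 11.7%. A match describes letters in this window only. The promoters of 3 genes described below are shown because they span this range, with CG in capitals; the first belongs to a gene higher with H3K27ac and the others to genes listed with Smc1 alone.
Ctcf, chr8:105636288-105636537, plus strand, 40 CG: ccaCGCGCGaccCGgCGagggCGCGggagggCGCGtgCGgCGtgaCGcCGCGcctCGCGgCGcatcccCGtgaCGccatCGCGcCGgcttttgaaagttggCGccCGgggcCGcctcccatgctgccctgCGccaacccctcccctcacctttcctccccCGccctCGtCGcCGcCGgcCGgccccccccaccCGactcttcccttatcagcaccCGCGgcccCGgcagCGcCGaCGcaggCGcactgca
Hoxd11, chr2:74679308-74679557, plus strand, 2 CG: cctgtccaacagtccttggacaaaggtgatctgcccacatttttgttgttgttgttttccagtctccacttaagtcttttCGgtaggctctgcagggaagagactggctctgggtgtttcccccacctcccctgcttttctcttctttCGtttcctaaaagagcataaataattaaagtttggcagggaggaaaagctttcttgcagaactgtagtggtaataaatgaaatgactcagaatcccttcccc
Dlx2, chr2:71546755-71547004, minus strand, 24 CG: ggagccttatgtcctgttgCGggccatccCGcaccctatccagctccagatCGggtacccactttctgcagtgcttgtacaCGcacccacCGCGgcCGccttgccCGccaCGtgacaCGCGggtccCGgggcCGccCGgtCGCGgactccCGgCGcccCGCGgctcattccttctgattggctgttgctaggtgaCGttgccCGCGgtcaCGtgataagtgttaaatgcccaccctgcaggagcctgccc
Dlx2 shows that a CG-rich promoter occurs on the Smc1 side too.

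In several lists of the T cell program more genes were higher with H3K27ac than with Smc1. Of 44 genes of the double-positive stage, 17 were higher with H3K27ac and 3 with Smc1; of 53 T cell receptor signalling genes, 17 and 7; and of 44 cytokine and cytokine receptor genes, 15 and 2. Over all genes the shares were 20.9% and 19.6%, and no member was called by edgeR. With TMM scaling the H3K27ac counts were 13, 12 and 10 of these lists, and 11.8% over all genes. With Smc1 interactions of at least 4 PETs they were 12 of 44, 13 of 53 and 7 of 44, against 20.1% over all genes. The cytokine list was then below the share of all genes, and the other lists were above it. The fitted log2 fold changes, which are scaled by TMM, were less one-sided. Their median was -0.03 over the 43 double-positive stage genes tested (20 positive, 23 negative), 0.24 over 50 T cell receptor signalling genes, 0.30 over 39 cytokine genes and -0.26 over 57 thymocyte transcription factors (25 positive, 32 negative), against -0.09 over all tested genes. Outside the T cell program, where 14 of 37 housekeeping genes, 11 of 32 histone acetylation genes and 9 of 22 cohesin and CTCF genes were also higher with H3K27ac.

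Cd6 and Cd5 encode a pair of scavenger receptor glycoproteins that tune T cell receptor signalling, and they lie side by side on chromosome 19. Cd6 (chr19:10789339-10830062) had 74 and 187 PETs in the H3K27ac libraries and 34 and 5 in the Smc1 libraries, or 194, 376, 20.4 and 3.37 CPM. Both H3K27ac libraries were above both Smc1 libraries, although chromosome 19 held few PETs of H3K27ac NOD 1. The log2 fold change was 4.18 ± 0.90 (SE; edgeR, adjusted p = 0.901), and DESeq2 gave an adjusted p of 6.86e-05. From Cd6, the bin of Cd5 received 30 and 77 PETs with H3K27ac and had none listed with Smc1. Seen from Cd5, contacts with bins of Cd6 were listed with both antibodies: the bin of Cd6 and Slc15a3 received 22, 74, 21 and 4 PETs, and another bin of Cd6 received 3 with H3K27ac NOD 1, none listed with H3K27ac NOD 2, and 18 and 5 with Smc1. Cd5 had 168, 299, 53.5 and 17.5 CPM in the same order of libraries, so its groups did not overlap either.

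Of the coreceptor genes, Cd4 had 110, 129, 48.7 and 10.8 CPM and did not overlap between groups, whereas Cd8a, with 97.1, 78.4, 115 and 22.9 CPM, did. Cd8b1 had 97.1, 265, 74.0 and 18.2 CPM. Its contact with the bin of Cd8a held 9, 62, 33 and 10 PETs, a contact that both antibodies listed. In CPM, both H3K27ac libraries were above both Smc1 libraries there.

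Il21r, the interleukin-21 receptor gene and a member of the type 1 diabetes candidate list, had 199 and 221 CPM with H3K27ac and 52.3 and 34.4 with Smc1. Its strongest partner was the same for both antibodies, the bin of Kdm8 and Nsmce1, with 24, 40, 31 and 10 PETs. In CPM, both H3K27ac libraries were above both Smc1 libraries at this contact. Of the 61 type 1 diabetes and Idd candidate genes, 11 (18.0%) were higher with H3K27ac and 10 (16.4%) with Smc1. Over all genes these shares were 20.9% and 19.6%.

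The gene of CTCF itself was among the genes higher with H3K27ac. Ctcf had 273 and 225 CPM with H3K27ac and 40.9 and 15.5 CPM with Smc1, which edgeR put at 2.73 ± 0.63 (log2 fold change and SE; adjusted p = 0.901). It shared interactions with its neighbour Ripor1 (228, 356, 50.5 and 33.0 CPM), so these genes are not separate observations. The contact from Ctcf to the bin of Ripor1 held 38 and 56 PETs with H3K27ac, 8 with Smc1 NOD 1 and none listed with Smc1 NOD 2. Counted around start sites only, the fold change of Ripor1 was reversed, at -0.87.

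The other genes with the widest gap on the H3K27ac side were Ewsr1, an RNA-binding protein gene, Kmt2e, a chromatin regulator, Smim7, Bcl2l12, Smad5, a signal transducer of bone morphogenetic proteins, Ssbp4, and Psmb9, a subunit of the immunoproteasome. Their H3K27ac levels lay between 57.7 and 141 CPM and their Smc1 levels between none listed and 11.5 CPM. Psmb9 had 57.7 and 98.5 CPM against 5.41 and 6.06 CPM. From Psmb9, the bin of Psmb8 and Tap2, genes of the same antigen-processing cluster, received 10 and 15 PETs with H3K27ac, with none listed for Smc1. All of these genes except Bcl2l12 were also higher with H3K27ac in the BL6 libraries, as were 45.5% of all genes higher with H3K27ac in NOD.

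**Figure D3:**
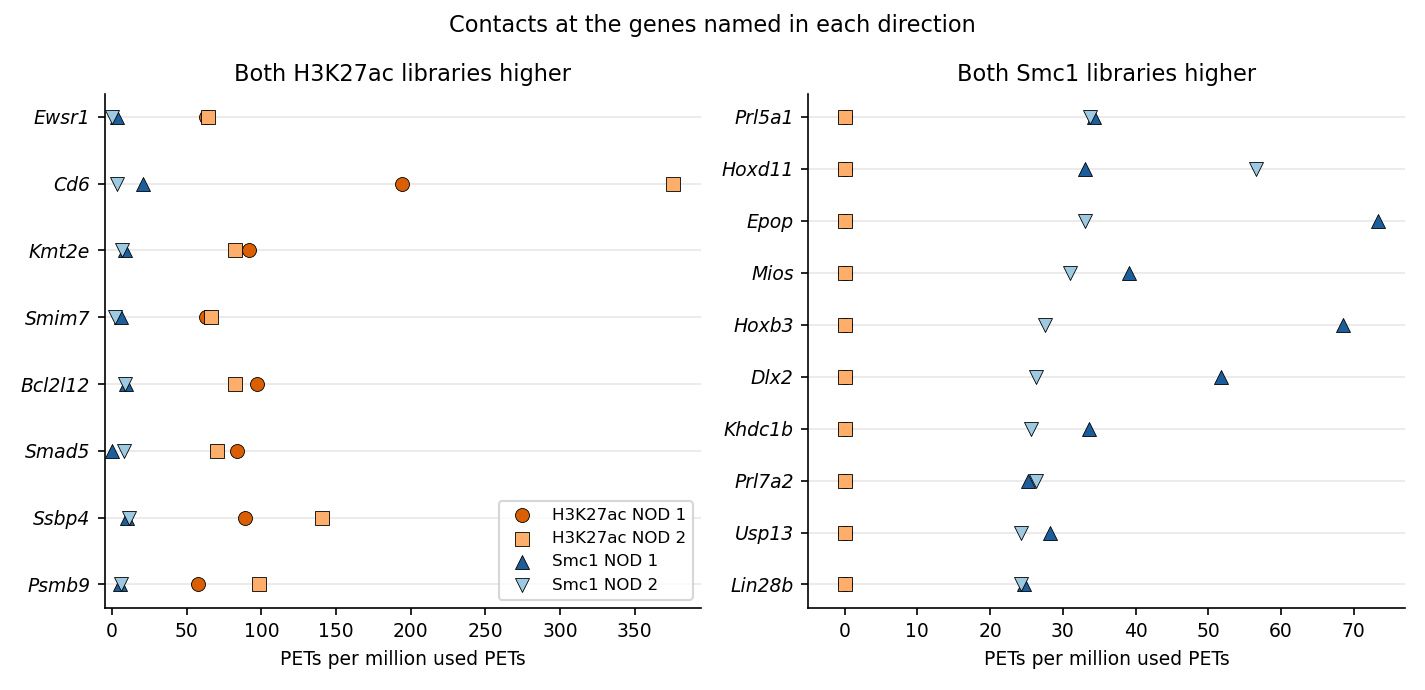
Level (CPM, horizontal axis) of the genes named on each side (8 on the left, 10 on the right), 1 symbol per library. On the left both H3K27ac libraries lie above both Smc1 libraries, with Cd6 reaching 376 CPM; on the right no contact was listed with H3K27ac, so that both of its symbols lie over each other at 0.

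Bcl11b and Bcl6, also regulators in these cells, were not higher with H3K27ac. Bcl11b had 197, 412, 279 and 117 CPM, and its groups overlapped. It contacted a bin 785 kb away with 14, 7, 43 and 20 PETs, so this long contact was listed with both antibodies. Bcl6, a transcriptional repressor, was higher with Smc1, at 42.0 and 96.4 CPM with H3K27ac and 274 and 103 CPM with Smc1. The highest Bcl6 level in H3K27ac and the lowest in Smc1 were close, and the BL6 groups overlapped. Bcl6 lies on chromosome 16, which held 0.97% of the PETs of H3K27ac NOD 1. In H3K27ac NOD 2, Smc1 NOD 1 and Smc1 NOD 2 this chromosome held 3.43%, 3.59% and 2.55%. The part of this difference in the Bcl6 levels was not tested. The contact of Bcl6 with a bin 1261 kb away held 2 PETs with H3K27ac NOD 1 and none listed with H3K27ac NOD 2. With Smc1 it held 27 and 22 PETs.

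Hox, silent neuronal and developmental, early progenitor, clustered protocadherin and olfactory receptor genes were more often higher with Smc1 than all genes were. Of 39 Hox genes, the transcription factors of body axis patterning, 24 were higher with Smc1 and 3 with H3K27ac; of 53 silent neuronal and developmental genes, 24 and 4; of 22 early progenitor genes, 9 and 1; of 57 clustered protocadherin genes, 28 and 0; and of 1104 olfactory receptor genes, 443 and 35. Over all genes 19.6% were higher with Smc1. The median log2 fold change of the 34 Hox genes tested was -2.31, against -0.09 over all tested genes. The median Smc1 level was 33.7 and 24.9 CPM over Hox genes and 28.9 and 23.6 CPM over early progenitor genes, against 20.4 and 16.2 CPM over all genes. It was 2.40 and 4.71 CPM over olfactory receptor genes and 8.42 and 6.06 CPM over protocadherin genes. With Smc1 interactions of at least 4 PETs, Smc1 was higher at 14 Hox, 11 silent developmental, 6 early progenitor, 6 protocadherin and 44 olfactory receptor genes, against 11.5% of all genes. On that measure, olfactory receptor genes (3.99%) and protocadherin genes (6 of 57) were below the share of all genes. Hox genes (35.9%), silent developmental genes (11 of 53) and early progenitor genes (6 of 22) were above it. Protocadherin and olfactory receptor genes are families of similar sequence, whose reads may be placed uncertainly. The clustered protocadherin genes lie close together on chromosome 18 and are not separate observations. None of them had a listed contact in H3K27ac NOD 1, where chromosome 18 held 0.80% of PETs. It held 3.13%, 3.27% and 2.72% in H3K27ac NOD 2, Smc1 NOD 1 and Smc1 NOD 2. The part of this difference in the protocadherin counts was not tested.

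The 4 Hox clusters differed from one another. HoxD held 21.0 and 10.0 CPM with H3K27ac and 189 and 160 CPM with Smc1. HoxC held 63.0 and 48.2 CPM against 175 and 154, and HoxB held 31.5 and 38.2 CPM against 200 and 82.2. In each of these 3 clusters both Smc1 libraries were above both H3K27ac libraries, and no gene was higher with H3K27ac. HoxA held 234 and 153 CPM with H3K27ac and 283 and 216 CPM with Smc1, so that its groups overlapped, and the 3 Hox genes higher with H3K27ac lie in it. Genes of a cluster share anchors and are not separate observations.

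All 10 genes with the widest gap on the Smc1 side had no listed contact in either H3K27ac library, so no fold change is given for them; over all genes, 8.92% were of this kind. Hoxd11 had 55 and 84 PETs with Smc1, and Hoxb3 had 114 and 41. Hoxb3 contacted a bin of Skap1, a T cell adaptor gene 202 kb away, with 9 and 6 PETs. Dlx2, a homeobox gene of forebrain and face, had 86 and 39 PETs, of which 11 and 4 reached the bin of Dync1i2 and Slc25a12. Epop, which encodes a partner of Polycomb repressive complex 2, had 122 and 49 PETs. Mios, Usp13, Lin28b, Khdc1b and the placental prolactin-family genes Prl5a1 and Prl7a2 had between 36 and 65 PETs in each Smc1 library. When only Smc1 interactions of at least 4 PETs were counted, Epop kept 60 and 27 PETs and Hoxb3 45 and 12, whereas Hoxd11 kept 5 and 4 and Dlx2 12 and none. In BL6, 7 of the 10 genes were also higher with Smc1, as were 45.2% of all genes higher with Smc1 in NOD. The BL6 groups overlapped at Prl5a1, Dlx2 and Khdc1b.

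Tg and Ubl7 were among the genes with the highest Smc1 levels and had contacts in all 4 libraries. Tg, which encodes thyroglobulin, had 19, 17, 200 and 190 PETs, or 49.9 and 34.2 CPM against 120 and 128 CPM (log2 fold change -2.03 ± 0.55, SE; edgeR, adjusted p = 0.901). Its contact with the neighbouring bin of Ccn4 held none, 5, 61 and 20 PETs. Ubl7 had 55.1 and 46.2 CPM against 128 and 125 CPM. For both genes the Smc1 libraries lay close together and above the H3K27ac libraries, although the BL6 groups overlapped.

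**Figure D4:**
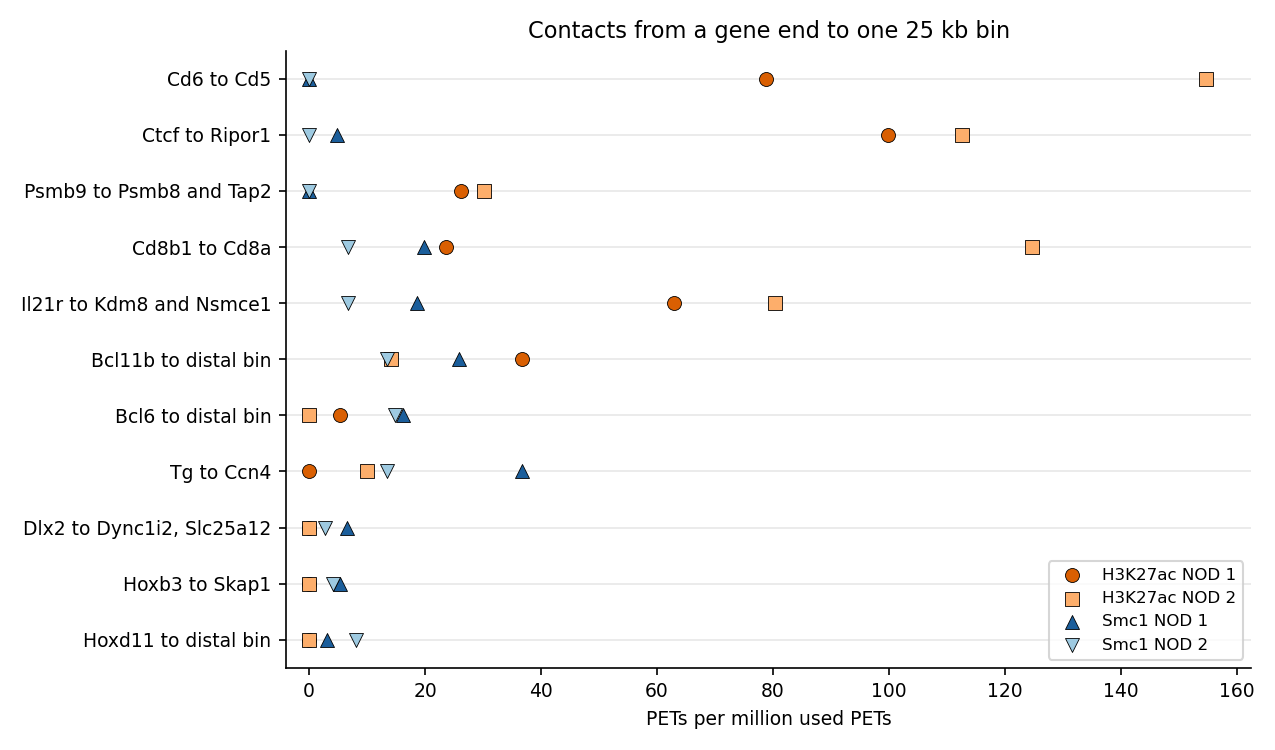
Level (CPM, horizontal axis) of contacts from the named gene to a single 25 kb bin, 1 symbol per library. The plotted contacts at Cd6, Ctcf and Psmb9 were listed mainly with H3K27ac, those at Il21r, Cd8b1 and Bcl11b with both antibodies, and those at Dlx2, Hoxb3 and Hoxd11 with Smc1 alone; symbols at 0 mean that none was listed and lie over each other.

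Markers of other cell types were also counted. Both H3K27ac libraries were higher at 6 of 22 B cell, 5 of 27 mature T cell, 9 of 34 myeloid, 3 of 24 natural killer, 1 of 15 erythroid and 4 of 22 thymic epithelium genes. Both Smc1 libraries were higher at 3, 4, 6, 4, 4 and 4 of them, against 19.6% of all genes. Among these marker lists only the erythroid list, at 26.7%, was above that share. Of the remaining T cell lists, thymocyte transcription factors had 14 higher with H3K27ac and 8 with Smc1 of 57, selection and apoptosis genes 8 and 6 of 35, and chemokine and migration receptors 8 and 5 of 27. In these lists the shares higher with H3K27ac lay between 6.67% and 29.6%, against 20.9% of all genes; differences between lists were not tested.

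**Figure D5:**
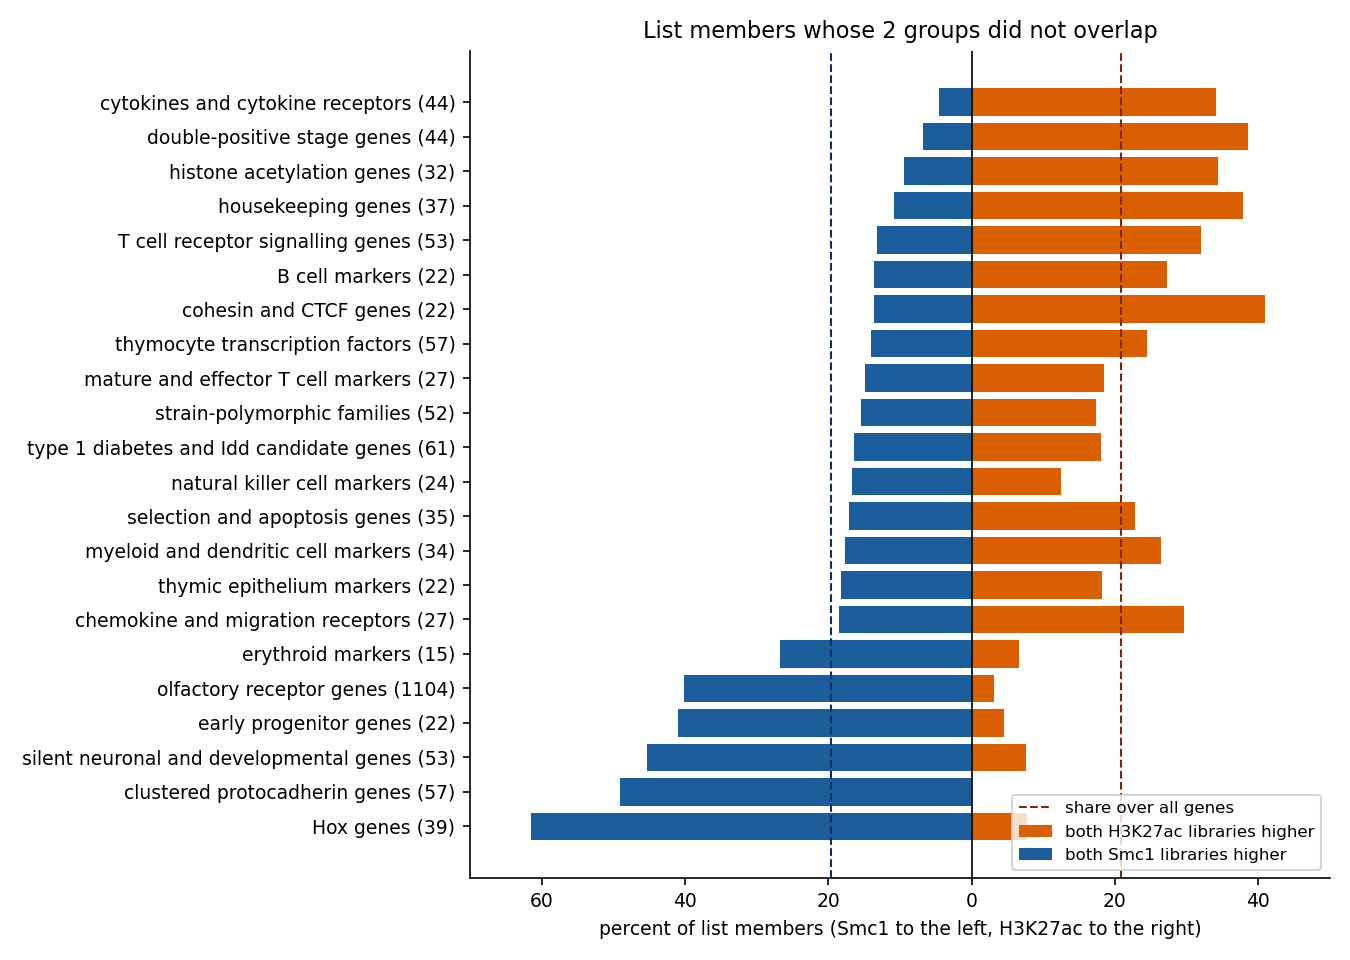
Percent of the members of each list (number of members in brackets) at which both H3K27ac libraries (right) or both Smc1 libraries (left) were higher; dashed lines mark the shares over all genes, 20.9% and 19.6%. Hox, protocadherin and silent developmental genes extend farthest to the left, and cohesin, double-positive stage and housekeeping genes farthest to the right.

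Bins were ranked by the same gap. On the H3K27ac side, the first was chr19:10775001-10800000, within Cd6, with 155 and 189 CPM against 13.2 and 6.74 CPM. The others lay at Mad1l1, Tbc1d22a, Nsmce2 and Ctcf; the bins at Cd6 and Ctcf hold PETs already counted at those genes. On the Smc1 side, chr13:71925001-71950000, which touches no protein-coding gene, had 77 and 73 PETs with Smc1 and none listed with H3K27ac. Of the 5 bins named on that side, 3 touched no protein-coding gene, as did 44149 of all 93313 bins, and the others lay at Vwc2 and Itga8.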

How the data were processed

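The deposited tables list interactions with PET counts, read counts of both anchors, a p-value and a q-value. The authors listed only interactions within a chromosome, of at least 2 PETs and with a q-value of at most 0.05, as tested on the files. Per the labels, the counts used here came from alignment to NOD/ShiLtJ, with coordinates shifted afterwards. Per the submitters' processing notes, HiC-Pro, Juicer 1.7.6 and MACS were used with GRCm38; the order of these steps is not given in the sources used here. The deposited p-values and q-values served only as filters.

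From these, PETs were summed per gene (20661 protein-coding RefSeq genes, windows of 5 kb around both ends) and per 25 kb bin, each interaction once, for chromosomes 1 to 19 and midpoints at least 10 kb apart. Used PETs ranged from 381002 to 1663280 per library, and their number limits what low levels show. Differences were tested with edgeR 4.0.16 (quasi-likelihood, TMM, library size set to used PETs, filterByExpr, Benjamini-Hochberg adjustment at 0.05, only the 4 NOD libraries) and, as an alternative, DESeq2 1.42.0, in R 4.3.3, after the script was tested on simulated data. Single values were compared by exact permutation. Other alternatives were scaling, filters on PETs, q and distance, windows, bins, replicate block and leaving out each library.

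Named genes had non-overlapping groups, at least 20 PETs in each library of the higher group and the largest ratio of the lowest to the highest level (5 CPM added), 10 per direction and at least 100 kb apart, since none passed the test. Named too were the 10 genes with the highest levels per antibody and the 3 strongest members of each of 22 lists. Bins followed the same ranking, 5 per direction. Ptcra, Themis and the other fixed markers and genes named as partners fall outside this rule, as do the Hox clusters; they were chosen after their values were seen, except the markers. Members, lists and comparisons were chosen with earlier results of these data known. The F1 library was not used here. Some genes that the rule names are not reported here.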

Additional observations from a re-analysis of the deposited data

Results flagged for a closer look

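Pairs of anchors under 10 kb apart were left out of every comparison but held signal, with 23333 and 40537 PETs in H3K27ac NOD 1 and 2 and 135270 and 166295 PETs in Smc1 NOD 1 and 2. Chromosome X, also left out, had 3 and 18 listed interactions in H3K27ac NOD 1 and 2 and 36 and 8 in Smc1 NOD 1 and 2.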

How the results depend on the processing

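The higher share of H3K27ac contacts with both anchors at gene ends kept its direction under every alternative run, between 1.37 and 3.11 percentage points, and between 1.57 and 2.91 without 1 library. The limit of at least 4 PETs for Smc1 interactions alone was not among these alternatives. The share rose with the PET limit. In Smc1 NOD 1 it was 7.18% from 3 PETs upwards, above the 7.04% of H3K27ac NOD 1 from 2 PETs upwards. The difference in median span was -1.09 kb for interactions of at least 3 PETs and ranged from -56.6 to 91.2 kb without 1 library; the cause was not tested. Called genes were 0 in each edgeR fit with all libraries and 14 with DESeq2, and 0 to 10 without 1 library. Called bins were 3 with DESeq2 and 0 to 7802 without 1 library.

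Same-numbered libraries share only a number, since the numbers mark technical replicates for Smc1 and biological replicates for H3K27ac. With the replicate block edgeR called 0 genes and 0 bins. Deviations from the group means correlated at -0.231 within numbers, and with the crossed pairing 0 genes and 6 bins were called.

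Genes higher with H3K27ac numbered 2444 with TMM, 2605 with DESeq2's size factors, 2619 at a q of at most 0.01, and 5469 to 8543 without 1 library, where fewer libraries have to be separated. Genes higher with Smc1 numbered 2382 with Smc1 interactions of at least 4 PETs and 5555 to 7956 without 1 library. Bins higher with H3K27ac numbered 5884 at 50 kb and 14658 to 23010 without 1 library. Bins higher with Smc1 numbered 10724 with Smc1 interactions of at least 4 PETs, 21958 at 50 kb and 46718 to 52850 without 1 library. The fold change of Ripor1 was -0.87 with start sites only; that of Tmem267 was -0.56 for numbers of interactions and -0.78 with Smc1 interactions of at least 4 PETs. The alternatives with Smc1 interactions of at least 4 PETs, start sites only, the crossed pairing, and scaled or library-wise counts of separated genes and bins were chosen after seeing the data.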

Other observations

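The highest levels with both antibodies in the NOD libraries were at Sfi1 and the overlapping gene Eif4enif1 on chromosome 11. Sfi1, which encodes a centrosomal protein, had 1488, 1029, 547 and 1082 CPM in H3K27ac NOD 1, H3K27ac NOD 2, Smc1 NOD 1 and Smc1 NOD 2, and its groups overlapped. Tmem267 had 648, 657, 253 and 305 CPM, higher with H3K27ac here and higher with Smc1 in both BL6 libraries. In H3K27ac BL6 1, no contact was listed at Sfi1 or Eif4enif1. In H3K27ac BL6 2, Smc1 BL6 1 and Smc1 BL6 2, Sfi1 had 9.97, 8.42 and 2.67 CPM, and Eif4enif1 had 23.3, 16.8 and 6.87 CPM. The cause of this gap to the NOD libraries was not tested. The 52 genes of the list of strain-polymorphic families together held 3399, 1911, 1554 and 2670 CPM in the 4 NOD libraries. The median span of these contacts was 58.5, 58.3, 111 and 60.6 kb. Sfi1 is a member of the list and held a large part of these PETs, with medians of 35.4, 24.9, 32.4 and 25.1 kb. Klra1, a natural killer receptor gene of the list (286, 135, 112 and 357 CPM), had longer medians of 163, 256, 303 and 160 kb. Reads from such repeated genes may be placed uncertainly.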
